A study of Mus musculus with 6 samples.

Results

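CC chemokines are small secreted proteins that guide leukocytes, and 13 of their genes were measured in cultured primary mouse astrocytes given human IgG against aquaporin-4 or a human control IgG. The members are all rows of the deposited table whose symbol is Ccl followed by digits, with Ccl27a counted by its digits, and they make up 13 of 14147 listed genes. The labels describe the cells as wild type and the antibody treatment as AQP4-IgG or Control-IgG for 24 h, with 3 RNA-seq libraries per group. The age and strain of the animals are not given. Nothing says that the 3 libraries of a treatment are separate cultures, so each p-value reflects library-to-library spread, which could be technical only. The series title also speaks of conditioned medium, so it is not known whether the IgG reached the cells directly or in such medium. Astrocytes surround blood vessels and synapses, and aquaporin-4 is their main water channel and the target of the antibodies found in neuromyelitis optica.

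Each CC chemokine carries a pair of adjacent cysteines near its amino terminus and acts through receptors coupled to G proteins on leukocytes. In the brain, astrocytes, microglia and vascular cells can all release them, and Ccl2 is best known for drawing blood monocytes that carry the receptor Ccr2. Several CC chemokine genes are classic targets of the transcription factor NF-kB, and some respond to interferons or to interleukin-4 through STAT6.

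Values are FPKM, read numbers divided by the exon length and by the depth of the library, so levels of different genes can be compared roughly. The length is that of all exons of a gene merged, which can exceed that of the transcript present. Whole reads recovered from the FPKM put the libraries at 17.9 to 20.6 M reads. The main test was limma on log2(FPKM + 1) over the 12334 genes averaging 1 FPKM or more, and a gene passed when its Benjamini-Hochberg adjusted p was under 0.05. Fold changes on that log2 scale understate changes of genes with low levels. The table holds astrocyte markers such as Gfap and Aqp4 in all 6 libraries: 13 of 14 astrocyte markers were listed, and their summed level was 648 to 738 FPKM with AQP4-IgG and 582 to 659 FPKM with Control-IgG. It also holds microglia and macrophage markers, with 20 of 22 listed and sums of 1259 to 1427 FPKM and 1279 to 1625 FPKM.

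The sequences just before the gene starts of the 4 members that passed the test, and of Ccl20, which had the largest ratio of levels, are shown so that the letters next to the starts of genes that lay higher together can be compared. They are the 250 bases before the start in RefSeq's GRCm38.p6 table, which held 9 of the 13 members, and for these 5 genes the start equals that in the deposited table. Capitals mark every match to the motifs searched, on both strands except for the TATA box, which was searched on the gene's strand: kappaB, the site of NF-kB; ISRE, the site of interferon-activated factors; GAS and STAT6, sites of STAT factors; AP-1; PU.1; and the TATA box.
Ccl6 (chr11:83593088-83593337, minus strand): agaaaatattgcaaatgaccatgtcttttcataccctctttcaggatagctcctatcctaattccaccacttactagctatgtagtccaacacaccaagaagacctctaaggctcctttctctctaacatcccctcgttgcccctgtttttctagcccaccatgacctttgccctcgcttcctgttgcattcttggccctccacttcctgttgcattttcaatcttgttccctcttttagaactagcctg
Ccl9 (chr11:83578637-83578886, minus strand): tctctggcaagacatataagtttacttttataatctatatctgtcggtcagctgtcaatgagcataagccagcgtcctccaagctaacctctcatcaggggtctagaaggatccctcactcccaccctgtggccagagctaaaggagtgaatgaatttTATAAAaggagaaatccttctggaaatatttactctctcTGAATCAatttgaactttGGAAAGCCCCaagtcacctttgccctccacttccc
Ccl12 (chr11:82101595-82101844, plus strand): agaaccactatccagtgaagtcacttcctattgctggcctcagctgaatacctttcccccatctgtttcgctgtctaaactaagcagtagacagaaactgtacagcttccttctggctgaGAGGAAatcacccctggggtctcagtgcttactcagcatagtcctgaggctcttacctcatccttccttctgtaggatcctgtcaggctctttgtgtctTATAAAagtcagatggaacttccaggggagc
Ccl17 (chr8:94810203-94810452, plus strand): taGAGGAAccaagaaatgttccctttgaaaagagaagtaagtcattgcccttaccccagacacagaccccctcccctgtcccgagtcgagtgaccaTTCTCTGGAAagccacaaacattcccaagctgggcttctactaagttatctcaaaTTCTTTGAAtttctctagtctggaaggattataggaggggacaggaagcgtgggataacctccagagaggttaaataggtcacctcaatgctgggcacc
Ccl20 (chr1:83116516-83116765, plus strand): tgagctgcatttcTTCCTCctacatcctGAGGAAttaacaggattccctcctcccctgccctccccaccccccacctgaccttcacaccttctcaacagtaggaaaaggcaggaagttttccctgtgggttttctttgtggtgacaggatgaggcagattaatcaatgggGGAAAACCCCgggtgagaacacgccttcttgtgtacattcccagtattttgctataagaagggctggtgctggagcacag

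In Ccl20 the kappaB match lies 80 to 71 bases before the start, and in Ccl9 one lies 35 to 26 bases before it. Among 32851 promoter windows of this length, 7.25% hold a kappaB match. Ccl17 holds a STAT6 match at 154 to 145 bases before the start and a GAS match (TTCNNNGAA) at 99 to 91 bases, found in 5.85% and 7.02% of windows. The STAT6 motif is that of GAS with 1 more base in its gap. The Ccl9 window also has an AP-1 match (TGANTCA, in 6.75% of windows). The windows of Ccl9 and Ccl12 hold the letters of the TATA box, TATAAA, as do 7.59% of all windows. PU.1, a factor of myeloid cells, has its letters GAGGAA in 23.3% of windows, among them those of Ccl12, Ccl17 and Ccl20. None of these letters occur in the Ccl6 window, and ISRE letters, a pair of GAAA with any 2 bases between (2.98% of windows), occur in none of the 12 windows of the 9 members. A match is a description of letters only, and a window without one says nothing of a factor acting elsewhere.

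Of the 13 CC chemokines, 10 reached the level needed for testing. With AQP4-IgG, Ccl6, Ccl12, Ccl9 and Ccl17 rose, 0 fell and 6 did not pass in limma, while 1.46% of all tested genes rose and 0.632% fell, 2.09% together. At an unadjusted p under 0.05, 7 of the 10 were higher and 1, Ccl27a, was lower, beside 7.64% and 5.68% of all tested genes, and limma-voom on recovered reads called 0 lower. Their median log2 fold change was 0.84, beside 0.00 over all tested genes (5th to 95th percentile -0.18 to 0.22). Over all 13 members, every AQP4-IgG library lay above every Control-IgG library in 8, as in 10.3% of the listed genes, and below in 1, as in 8.38%. Ccl20, 1 of the 8, is listed only through its AQP4-IgG level. The summed level of the 13 transcripts was 171, 151 and 135 FPKM in AQP4-IgG 1, 2 and 3, against 73.0, 61.1 and 47.8 FPKM in Control-IgG 1, 2 and 3. The sums did not overlap, and Ccl2 alone made up 37.0% to 38.9% of them with AQP4-IgG and 25.3% to 37.1% with Control-IgG. The authors' deposited table gives 7 members an adjusted p under 0.05 with a higher level, among 2.03% of listed genes, and 0 with a lower level. The 7 are Ccl6, Ccl2, Ccl7, Ccl5, Ccl12, Ccl9 and Ccl20, the last listed only through its AQP4-IgG level. Ccl17 is not among them.

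**Figure D1:**
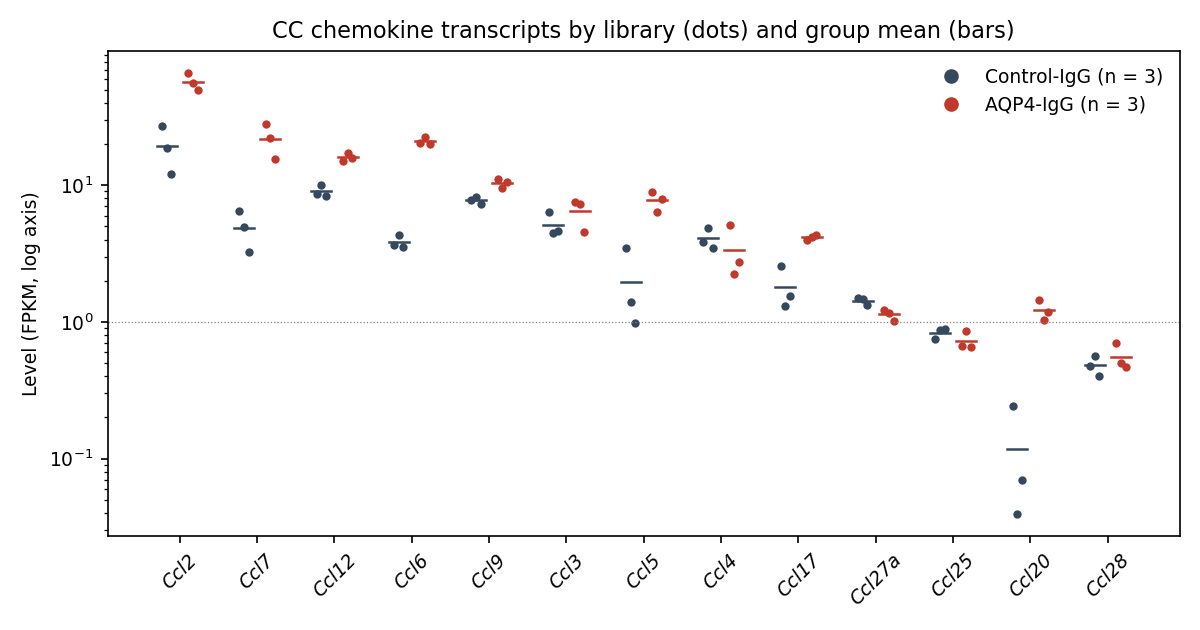
Level of each of the 13 CC chemokines in FPKM on a log axis, with dots for the 3 libraries of each group and bars for group means. Ccl2 is highest in both groups, the dots of Ccl6 are furthest apart among the members above 1 FPKM in both groups, and those of Ccl3, Ccl4, Ccl25 and Ccl28 overlap.

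The count of 4 changed with each library that was left out. It was 2, Ccl6 and Ccl12, without AQP4-IgG 1, 2 or 3 and without Control-IgG 2 or 3, and 6 without Control-IgG 1, when Ccl2 and Ccl5 also passed. Over all tested genes, 0.438%, 0.389% and 1.01% rose when AQP4-IgG 1, 2 and 3 were left out in turn, and 2.37%, 0.308% and 0.681% when Control-IgG 1, 2 and 3 were. In limma without robust variance estimation 7 of the 10 passed, among 1.52% of genes that rose, and in limma-voom on recovered reads 6 did, among 2.79% of genes that rose there.

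The ligands of Ccr2 include the most abundant member of both groups. Ccl2, the main monocyte attractant, stood at 66.5, 55.7 and 49.9 FPKM in AQP4-IgG 1, 2 and 3 and at 27.1, 18.6 and 12.1 FPKM in Control-IgG 1, 2 and 3. The groups did not overlap, and the means of 57.4 ± 8.39 and 19.3 ± 7.54 FPKM gave a ratio of 2.98. Spread within the groups was wide, and the log2 fold change of 1.58 (SE 0.311) had an adjusted p of 0.107. Without Control-IgG 1, the highest control, the adjusted p was 0.0425, and in limma without robust variance estimation it was 0.0193.

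Ccl7, a close relative of Ccl2 that attracts monocytes through Ccr2 and other receptors, ran from 15.6 to 28.0 FPKM with AQP4-IgG and from 3.24 to 6.44 FPKM with Control-IgG. AQP4-IgG 1 was the highest and AQP4-IgG 3 the lowest of its group, as for Ccl2, and Control-IgG 1 and 3 were the highest and lowest controls for both. Its mean of 21.9 ± 6.19 FPKM (SD, n = 3) against 4.88 ± 1.60 FPKM was 4.50-fold higher, with a log2 fold change of 1.97 (SE 0.297) and an adjusted p of 0.0519 in limma. Ccl7 passed in 8 of 16 alternative fits, among them median scaling (adjusted p = 0.0494) and limma-voom (adjusted p = 0.0413), and in 0 of the 6 fits that left out a library. Over the 16 fits the adjusted p of Ccl7 ran from 5.41e-06, in limma with the replicate number as a block, to 0.204, in limma without AQP4-IgG 2. The authors' deposited table gives it a log2 fold change of 2.16 and an adjusted p of 0.00102.

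Ccl12, a monocyte attractant described in the mouse that also binds Ccr2, rose. Its level was 15.2, 17.3 and 15.9 FPKM in AQP4-IgG 1, 2 and 3 and 8.69, 9.97 and 8.35 FPKM in Control-IgG 1, 2 and 3. The groups were tight and separate: the mean of 16.1 ± 1.11 FPKM was 1.79-fold that of 9.01 ± 0.854 FPKM. The log2 fold change was 0.78 (SE 0.073, adjusted p = 0.00418), and the call held in all 16 alternative fits, with adjusted p up to 0.0212. Control-IgG 1, high for Ccl2 and Ccl7, lay in the middle of the controls for Ccl12. The level of Ccl2 was 3.14 to 4.38 times that of Ccl12 with AQP4-IgG and 1.45 to 3.12 times with Control-IgG. Ccl7 over Ccl2 was 0.313 to 0.421 against 0.238 to 0.268.

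Ccl6 and Ccl9 are neighbouring genes for rodent chemokines that act on myeloid cells through Ccr1. Ccl6 had the smallest p of the 10 tested members, with 20.5, 22.4 and 19.9 FPKM in AQP4-IgG 1, 2 and 3 and 3.67, 4.32 and 3.53 FPKM in Control-IgG 1, 2 and 3. These values rest on 735 to 820 reads per AQP4-IgG library and 127 to 139 reads per control library. The lowest AQP4-IgG library was far above the highest control, and the ratio of means was 5.45. The log2 fold change of Ccl6 was 2.18 (SE 0.073, adjusted p = 7.62e-06), and its adjusted p did not exceed 0.000205 in any of 16 alternative fits.

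Ccl9 rose by a smaller fold. It stood at 11.03, 9.50 and 10.5 FPKM in AQP4-IgG 1, 2 and 3 and at 7.86, 8.21 and 7.24 FPKM in Control-IgG 1, 2 and 3, which do not overlap. The ratio of means was 1.33 and the log2 fold change 0.37 (SE 0.067, adjusted p = 0.0307). This call ended when AQP4-IgG 1, 2 or 3 was left out (adjusted p of 0.123, 0.0505 and 0.0875), without Control-IgG 2 or 3 (0.0773 and 0.112), and in limma without a trend (0.0576). The authors' deposited table gives Ccl9 a log2 fold change of 0.40 and an adjusted p of 0.0276. Of its 50-base stretches, 1.97% also occur in transcripts of other genes.

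Within each library the levels of the pair can be set against each other. Ccl6 over Ccl9 was 1.86, 2.36 and 1.89 in AQP4-IgG 1, 2 and 3, against 0.467, 0.526 and 0.487 in Control-IgG 1, 2 and 3. By FPKM, Ccl6 was thus the more abundant transcript of the pair in every AQP4-IgG library and the less abundant in every control. That order rests on merged exon lengths of 1795 bases for Ccl6 and 3045 for Ccl9, whereas the fold between groups does not. In reads, the AQP4-IgG libraries held 735 to 820 for Ccl6 and 590 to 689 for Ccl9. The mean ratio was 4.13-fold higher with AQP4-IgG. A two-sided exact permutation test gave p = 0.1 (adjusted p = 0.125 over 10 ratios computed, all chosen with the values known), and 0.1 is the smallest p that 3 against 3 allows.

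Ccl3, Ccl4 and Ccl5 attract T cells and macrophages. Ccl5, a target of both interferon signalling and NF-kB, stood at 8.99, 6.38 and 7.93 FPKM in AQP4-IgG 1, 2 and 3 and at 3.48, 1.39 and 0.987 FPKM in Control-IgG 1, 2 and 3. Control-IgG 1 held 3.53 times the level of Control-IgG 3, the widest control spread among the tested members. The log2 fold change was 1.65 (SE 0.331, adjusted p = 0.0988). It passed without Control-IgG 1 (adjusted p = 0.000638), in limma without robust variance estimation (0.0272) and in limma-voom (0.00462), and the authors' deposited table gives an adjusted p of 0.00438.

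Ccl3 stood at 7.57, 7.23 and 4.56 FPKM with AQP4-IgG and at 6.35, 4.44 and 4.62 FPKM with Control-IgG. Ccl4 stood at 5.10, 2.23 and 2.72 FPKM and at 3.87, 4.90 and 3.47 FPKM. For both of these macrophage inflammatory proteins the groups overlapped. Their log2 fold changes were 0.27 (SE 0.200, adjusted p = 0.685) and -0.27 (SE 0.255, adjusted p = 0.765), and neither passed in any of 15 alternative fits. Ccl5 over Ccl3 was 0.883 to 1.74 with AQP4-IgG and 0.214 to 0.548 with Control-IgG.

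Ccl17, the ligand of Ccr4 on T helper and regulatory T cells and best known from dendritic cells, rose at a low level. It stood at 3.98, 4.2 and 4.34 FPKM in AQP4-IgG 1, 2 and 3 and at 2.58, 1.30 and 1.55 FPKM in Control-IgG 1, 2 and 3. Behind these values are 42 to 46 reads per AQP4-IgG library and 12 to 27 reads per control, so counting error is a larger part of its spread than for Ccl6. The ratio of means was 2.30 and the log2 fold change 0.91 (SE 0.152, adjusted p = 0.0301). The call ended without AQP4-IgG 1, 2 or 3 (adjusted p of 0.125, 0.137 and 0.0922), without Control-IgG 2 or 3 (0.0823 and 0.120) and in limma without a trend (0.0559), and without Control-IgG 1 the adjusted p was 0.000422. The authors' deposited table gives Ccl17 an adjusted p of 0.0844.

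Ccl20, which attracts Ccr6-bearing lymphocytes and is an NF-kB target, lay below the level for the main test. It had 42, 30 and 35 reads in AQP4-IgG 1, 2 and 3 and 7, 1 and 2 reads in Control-IgG 1, 2 and 3. Its groups did not overlap, at 1.04 to 1.44 FPKM and 0.0393 to 0.242 FPKM. The deposited table lists genes whose larger group mean is at least 0.5 FPKM. With a control mean of 0.117 FPKM, Ccl20 is listed only through its AQP4-IgG libraries. Its ratio and tests are therefore tied to that listing. The 107 reads against 10, scaled by library totals, gave a ratio of 10.1 with an exact 95% interval of 5.31 to 21.8, which covers counting error only. Without the filter limma gave it an adjusted p of 0.00762, among 1.15% of genes that rose there, and 6 of the 13 members rose in that fit, Ccl7 and Ccl20 besides the 4 above. In limma-voom without the filter, chosen after the data were seen, 6 members also rose, with Ccl20 at an adjusted p of 0.000635 and 2.65% of genes higher.

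The members known from skin, thymus and mucosa had low levels. Ccl27a, a skin chemokine that binds Ccr10, ran from 1.02 to 1.23 FPKM with AQP4-IgG and from 1.32 to 1.49 FPKM with Control-IgG. It was the single member whose AQP4-IgG libraries all lay below the controls, and its log2 fold change was -0.19 (SE 0.079, adjusted p = 0.351). Of its 50-base stretches 45% occur in transcripts of near copies such as Ccl27b, so its level is uncertain. Its overlap with Il11ra1, on the other strand, covers only positions 41769467 to 41769474. Ccl25, a ligand of Ccr9 in thymus and gut, ran from 0.658 to 0.856 and from 0.746 to 0.884 FPKM, and Ccl28, a mucosal ligand of Ccr10, from 0.471 to 0.695 and from 0.401 to 0.564 FPKM. Both overlapped between groups and lay below the level for testing, and in the unfiltered limma fit their adjusted p were 0.769 and 0.863. Ccl25 overlaps Elavl1, and whether reads were counted by strand is not given in the sources used here.

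**Figure D2:**
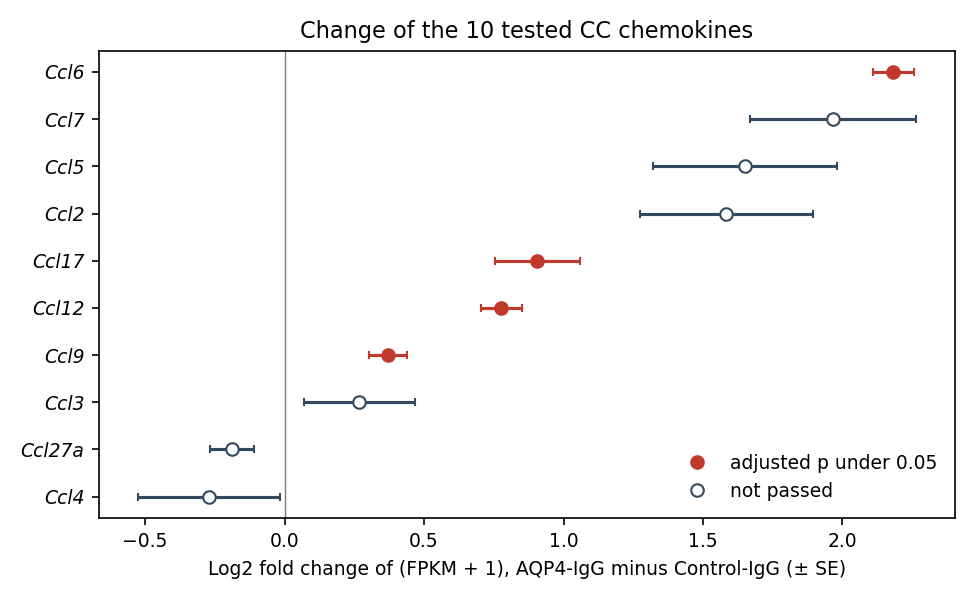
Log2 fold change of (FPKM + 1), AQP4-IgG minus Control-IgG, with SE bars for the 10 tested CC chemokines; filled red marks an adjusted p under 0.05. Ccl7, Ccl5 and Ccl2 have changes of 1.58 to 1.97 with SE of 0.297 to 0.331 and did not pass, whereas Ccl12 and Ccl9 have smaller changes with SE of 0.067 to 0.073 and passed.

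The order of the members by FPKM, which rests on the exon lengths used, differed between groups. With Control-IgG it ran Ccl2, Ccl12, Ccl9, Ccl3, Ccl7, Ccl4 and Ccl6, of which the neighbours from Ccl3 to Ccl6 overlapped in range. With AQP4-IgG it ran Ccl2, Ccl7, Ccl6, Ccl12, Ccl9, Ccl5 and Ccl3, with overlap between Ccl7 and Ccl6 and between Ccl5 and Ccl3. Ccl6 went from place 7 to place 3, and Ccl20 from place 13 to place 10. Ccl2 stood first in both groups, its range apart from that of the next member.

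Variation between libraries of one group split the members. Control-IgG 1 was the highest control for Ccl2, Ccl7, Ccl5, Ccl17, Ccl20, Ccl3 and Ccl27a, at 1.41, 1.32, 1.78 and 1.42 times the control mean for the first 4. For Ccl6, Ccl12, Ccl9 and Ccl4 the highest control was Control-IgG 2, at 1.06 to 1.2 times the control mean. Control-IgG 1 also had the highest sum of microglia and macrophage markers, 1625 FPKM against 1279 and 1319 FPKM in Control-IgG 2 and 3, and the part of that in the levels of Ccl2, Ccl7, Ccl5 and Ccl17 was not tested. Without Control-IgG 1, the log2 fold changes of Ccl2 and Ccl5 were 1.86 and 2.00, against 1.58 and 1.65 with all libraries.

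**Figure D3:**
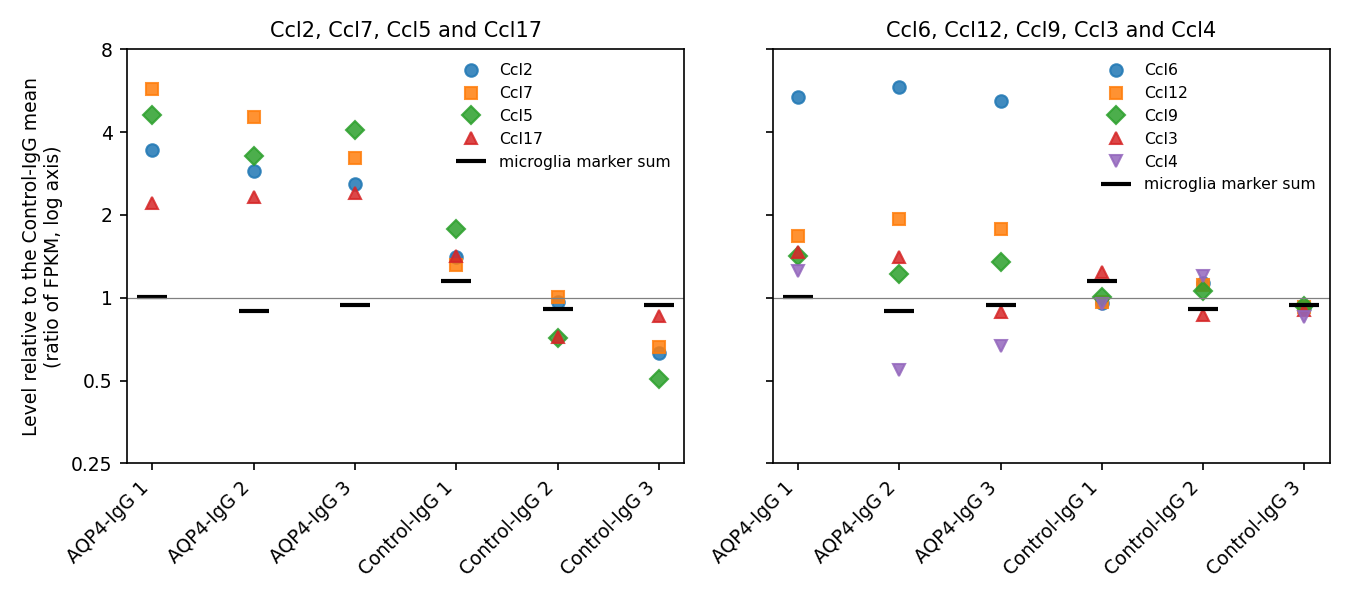
Level of 9 CC chemokines in each library as a ratio to the Control-IgG mean, on a log axis, with the sum of microglia and macrophage markers as black bars. Ccl2, Ccl7, Ccl5 and Ccl17 (left) are high in Control-IgG 1 at 1.32 to 1.78. Ccl6 (right) stands at 5.17 to 5.83 in the AQP4-IgG libraries. The marker sum, which is mostly Lyz2, stays between 0.894 and 1.15.

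Microglia and macrophages are known sources of several of these chemokines, and in bulk samples fewer cells of a type and less RNA per cell cannot be told apart. Of 18 tested microglia and macrophage markers 0 rose and 1 fell in limma, beside 1.46% and 0.632% of all tested genes, with a median log2 fold change of -0.09. At an unadjusted p under 0.05, 1 was higher and 5 were lower, beside 7.64% and 5.68% of all tested genes. Limma-voom called 1 higher and 1 lower, Itgam and Cx3cr1, and without Control-IgG 1 limma called 1 higher, Itgam (adjusted p = 0.026), and 0 lower. Itgam, an integrin of myeloid cells, was named after its values were seen. The one that fell was the fractalkine receptor Cx3cr1 (8.09 ± 0.95 against 11.9 ± 1.40 FPKM, adjusted p = 0.0427), a call that ended without AQP4-IgG 2 or 3 or Control-IgG 1 or 2 (adjusted p of 0.164, 0.118, 0.0555 and 0.164). Lyz2, the most abundant of them, stood at 0.923 to 1.05 times the control mean with AQP4-IgG. Per 1000 FPKM of the 20 listed markers, Ccl6 stood at 14.4, 17.8 and 15 FPKM in AQP4-IgG 1, 2 and 3 and at 2.26, 3.38 and 2.67 FPKM in Control-IgG 1, 2 and 3. On that scale the mean of Ccl6 was 5.68-fold higher, and those of Ccl12, Ccl9 and Ccl2 were 1.87-, 1.39- and 3.18-fold higher. For each of them the groups did not overlap, with p = 0.1 in the exact permutation test (adjusted p = 0.125 over the 10 ratios). That is the smallest p the test allows, and the share of all genes lying apart on this scale was not computed. Ccl3 and Ccl4 overlapped on it too, at 3.44 to 5.74 against 3.47 to 3.91 FPKM and at 1.77 to 3.57 against 2.38 to 3.83 FPKM. The marker sum is mostly Lyz2, and the part of microglia and macrophages in the chemokine levels was not tested.

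Of the astrocyte markers 3 of 13 tested rose and 0 fell, beside 1.46% and 0.632% of all tested genes. They were Aqp4, Slc1a3 and Slc1a2 (adjusted p of 0.0216, 0.0304 and 0.0464). The count was 0 without AQP4-IgG 1 or 2 or Control-IgG 2 or 3. The part of this in the chemokine levels was not tested.

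Few markers of other leukocytes were in the table, which lists genes whose larger group mean is at least 0.5 FPKM. Of 10 T and NK cell markers 0 were in the table, and of 10 neutrophil markers only Csf3r was, with sums of 0.376 to 0.5 FPKM with AQP4-IgG and 0.634 to 0.994 FPKM with Control-IgG. Of 12 monocyte and dendritic cell markers 5 were listed, with sums of 6.26 to 9.02 FPKM with AQP4-IgG and 4.63 to 6.54 FPKM with Control-IgG, and the only one tested, Cd74, did not pass (adjusted p = 0.429). The part of these sums in the rise of Ccl17, a dendritic cell chemokine, was not tested. Of 10 endothelial markers 3 were listed, with sums of 4.93 to 5.48 and 4.43 to 4.85 FPKM, and Pecam1 and Cldn5 were not among them. Of 10 fibroblast and mural markers 7 were listed, with sums of 2045 to 2385 and 2691 to 2949 FPKM that were mostly Acta2, the smooth muscle actin, which fell (adjusted p = 0.0243). Of 10 oligodendrocyte lineage markers 6 were listed, with sums of 222 to 242 and 248 to 260 FPKM, and of 10 neuronal markers 3, with sums of 78.9 to 86.1 and 78.4 to 86.2 FPKM. The part of these cells in the chemokine levels was not tested.

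Of the 13 genes, 8 lie on chromosome 11 in a pair of stretches. The first, on the plus strand, holds Ccl2 (82035571 to 82037453 in GRCm38), Ccl7 (82045712 to 82047525) and Ccl12 (82101845 to 82103400). The other holds Ccl5 (83525778 to 83530518), Ccl9 (83572919 to 83578636), Ccl6 (83587882 to 83593087) and Ccl3 (83647844 to 83649355) on the minus strand and Ccl4 (83662584 to 83664683) on the plus strand. Close neighbours had unequal values: Ccl6 and Ccl9 are 9.2 kb apart with log2 fold changes of 2.18 and 0.37, and Ccl3 and Ccl4, 13.2 kb apart, had 0.27 and -0.27. The 7 other tested genes within 200 kb of these members did not pass, with log2 fold changes of -0.15 to 0.34, the highest being that of Wfdc17 (adjusted p = 0.136).

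**Figure D4:**
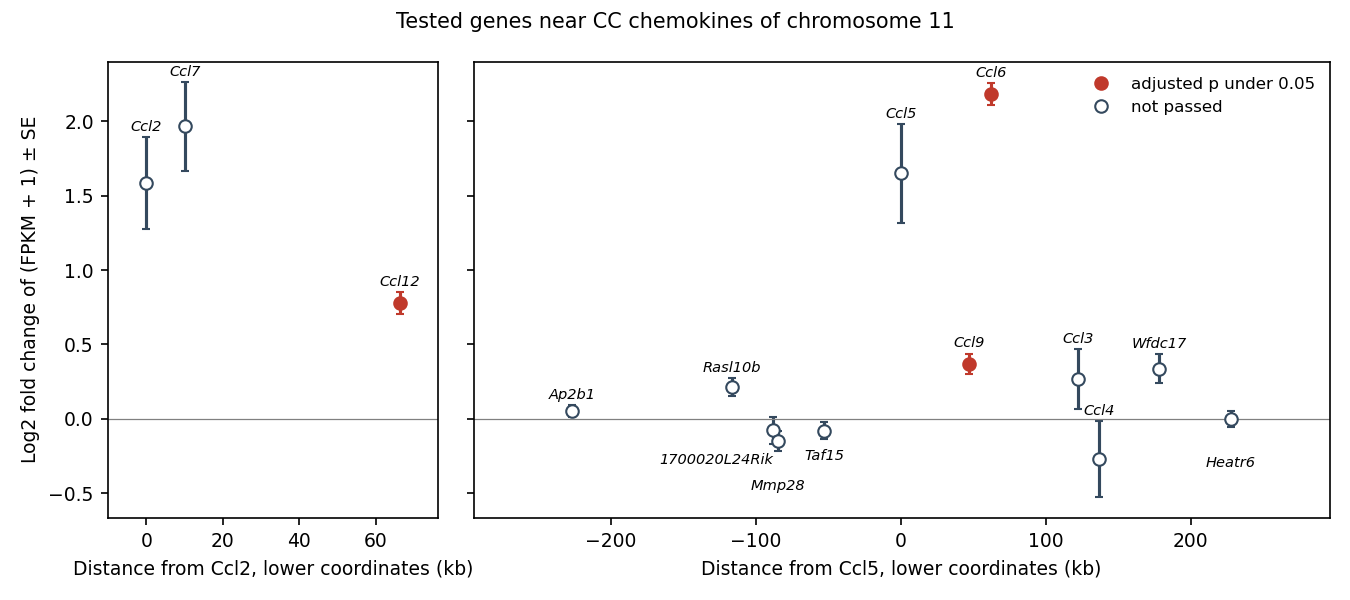
Log2 fold change of (FPKM + 1) with SE bars for tested genes near the CC chemokines of chromosome 11, against the distance in kb from Ccl2 (left) and from Ccl5 (right); filled red marks an adjusted p under 0.05. Ccl6 at 2.18 and Ccl5 at 1.65 stand above the neighbouring Ccl9, Ccl3 and Ccl4, and the 7 other genes lie between -0.15 and 0.34.

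Ccl17 lies on chromosome 8 (94810453 to 94812036, plus strand), 28.0 kb from Cx3cl1, the gene of the membrane-bound chemokine fractalkine. Cx3cl1 rose from 12.1 ± 2.32 to 22.9 ± 2.51 FPKM (log2 fold change 0.88, adjusted p = 0.0304), beside 0.91 for Ccl17, and this call ended without AQP4-IgG 1 or 2 or Control-IgG 2 or 3 (adjusted p of 0.124, 0.140, 0.123 and 0.0905). Of the 37 tested other genes within 200 kb of any member, Cx3cl1 alone passed, beside 2.09% of all tested genes.

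The receptors of these ligands were measured only in part. Ccr1, the receptor of Ccl6, Ccl9 and Ccl5, had means of 10.1 ± 0.175 FPKM in AQP4-IgG libraries and 8.69 ± 1.70 FPKM in controls (adjusted p = 0.504). Its groups overlapped. Ackr3, a scavenging chemokine receptor, had the smallest p of the 3 tested receptors and did not pass (adjusted p = 0.301). Of the 3, 1, Ackr3, was higher at an unadjusted p under 0.05, beside 7.64% of all tested genes, and limma-voom called 0. Without Control-IgG 1, Ccr1 passed in limma (adjusted p = 0.0499), where 2.37% of all tested genes rose, and Ackr3 did not (adjusted p = 0.348). Ccr2 and Ccr4, the receptors of Ccl2 and Ccl17, and 11 others of the 17 receptors and decoys were not in the table. The table lists genes whose larger group mean is at least 0.5 FPKM. Of 19 genes of chemokine receptor signalling 0 passed in limma or limma-voom and 2 were lower at an unadjusted p under 0.05, beside 5.68% of all tested genes, with a median log2 fold change of -0.03 and the smallest p for the kinase Ptk2b (adjusted p = 0.339).

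Among genes that act upstream of CC chemokines, calls at an adjusted p under 0.05 were few outside the STAT and IRF factors. Of 15 tested NF-kB factors and inhibitors 0 passed in limma or limma-voom, and 5 were higher at an unadjusted p under 0.05, beside 7.64% of all tested genes. A positive log2 fold change was seen in 14, and their median was 0.18, beside 0.00 over all genes. The smallest p was that of Nfkbiz, a nuclear inhibitor-like protein that promotes some NF-kB targets, at 9.08 ± 1.2 against 5.15 ± 1.37 FPKM (adjusted p = 0.112). Without Control-IgG 1, 4 of the 15 passed, where 2.37% of all tested genes rose. The list of STAT and IRF factors also holds Cebpa, Cebpb, Cebpd and Spi1, which are of other families. Of its 17 tested genes, 4 rose and 0 fell, beside 1.46% and 0.632% of all tested genes. Irf7 and Stat2 were among them, with ratios of 3.79 and 1.91 (adjusted p of 0.00984 and 0.0118). At an unadjusted p under 0.05, 7 of the 17, Cebpd among them, were higher and 0 lower. Leaving out AQP4-IgG 2 or Control-IgG 2 brought the number called to 0, leaving out AQP4-IgG 1 to 1 and leaving out Control-IgG 1 to 7, and limma-voom gave 6. In those fits, in that order, 0.389%, 0.308%, 0.438%, 2.37% and 2.79% of all tested genes rose. Stat6, the factor linked to Ccl17 in dendritic cells, averaged 10.9 ± 0.552 and 11.1 ± 1.04 FPKM, with overlapping groups.

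The list of upstream receptors holds 24 genes, which are cytokine, Toll-like and Fc receptors and the adaptors Myd88 and Ticam1. Of these 24, 1 rose and 0 fell, beside 1.46% and 0.632% of all tested genes. It was Tlr3, a sensor of double-stranded RNA, at 23.2 ± 1.66 against 17.3 ± 0.645 FPKM (adjusted p = 0.0125). The count was 5 without Control-IgG 1, 0 without Control-IgG 2 and 4 in limma-voom. In those fits 2.37%, 0.308% and 2.79% of all tested genes rose. At an unadjusted p under 0.05, 11 of the 24, Myd88 among them, were higher and 0 lower, beside 7.64% and 5.68% of all tested genes. The Fc receptors Fcgr1, Fcgr2b, Fcgr3 and Fcgr4, through which IgG acts on myeloid cells, did not pass (adjusted p of 0.149, 0.906, 0.952 and 0.667). Of 9 tested chemokines of other classes, 4 rose and 0 fell, beside 1.46% and 0.632% of all tested genes. All 9 had a positive log2 fold change and an unadjusted p under 0.05, beside 7.64% of all tested genes higher at that p. Besides Cx3cl1, those called were Cxcl16, Ppbp and Pf4, with ratios of 1.80, 4.09 and 1.72 and adjusted p of 0.0106, 0.0113 and 0.0445. Ppbp averaged 0.433 FPKM with Control-IgG and 1.77 FPKM with AQP4-IgG. It thus reached the level for testing only through its AQP4-IgG libraries. The number called was 1 without AQP4-IgG 1 or 2 or Control-IgG 3 and 0 without Control-IgG 2.

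Of 6 tested proteases that can cut chemokines, 2 rose and 0 fell in limma, beside 1.46% and 0.632% of all tested genes. The same count held in each fit with 1 library left out, where 0.308% to 2.37% of all tested genes rose. Mmp12, the macrophage elastase, went from 0.627 ± 0.0108 to 2.88 ± 0.0662 FPKM and Mmp3, stromelysin, from 2.07 ± 0.288 to 8.08 ± 1.05 FPKM. Their adjusted p were 0.000229 and 0.000796 in limma. By ratio these rises, 4.59- and 3.91-fold, lie near that of Ccl6. Mmp12 averaged under 1 FPKM with Control-IgG and reached the level for testing only through its AQP4-IgG libraries. Mmp2 and Mmp14 did not pass, and their groups overlapped.

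The genes whose profile over the 6 libraries was most like each member were taken by the distance between log2(FPKM + 1) values, each centred on its own mean. For Ccl6 they were the interferon-stimulated genes Ifit3b, Isg15 and Ifi44, at distances of 0.56, 0.60 and 0.68 log2 units. For Ccl2 they were Gbp2, Usp18 and H2-Q4 (0.39 to 0.41), for Ccl7 Steap4, Oasl2 and Ifit3b (0.42 to 0.49), and for Ccl5 Gbp3, Usp18 and Rtp4 (0.42 to 0.45). Ccl12 was closest to Herc6, Ddx60 and Parp14 (0.25 to 0.28), and Ccl17 to Hap1, Trim30a and the chemokine Ppbp (0.17 to 0.24). Members that changed less had other neighbours: Tnfrsf22, Pilrb1 and Dnaaf3 for Ccl9, and Tcea3, Cebpb and Car13 for Ccl3. For Ccl4 they were Krt19, Nrtn and Particl (0.37 to 0.49), and for Ccl27a Asns, Anxa11 and Hip1r (0.04 to 0.05). With 6 libraries in 2 groups, most of such a distance is set by the size of the group difference.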

How the data were processed

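RNA-seq was run on 6 libraries of mouse astrocytes. The authors deposited 1 table of FPKM values, with their own log2 fold changes and p-values, whose test is not given in the sources used here. The header names no unit: FPKM was inferred because values times GENCODE M21 exon lengths fell within 0.1 of a whole read in 98.99% to 99.14% of values under 200 reads. Whole reads were thus recovered for 13306 genes. Columns headed case NMO and control WT were matched to AQP4-IgG and Control-IgG by those words and their numbers. GRCm38 and mm10 are named in the submitters' processing notes, with no aligner, counter or strand setting given in the sources used here.

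In this re-analysis, limma 3.58.1 (R 4.3.3; trend and robust variance) was fitted to log2(FPKM + 1) of the 12334 genes averaging 1 FPKM or more, and was checked on simulated data. Alternatives were other scalings, filters, pseudocounts and variance settings, a replicate block, limma-voom on recovered reads and each library left out. Libraries of a group differed by more than sampling noise (chi-square per degree of freedom 4.04 to 7.53). The members and gene lists were chosen with earlier results of these data known. The genes named were the members, up to 3 called genes of each list with the smallest p (else 1), receptors of members, the 3 profiles most like each member and genes within 200 kb. Pf4, Stat6, Lyz2, Itgam, Cd74, Csf3r, Acta2, Mmp2, Mmp14 and the Fc receptors lie outside that rule and were chosen after their values were seen. Cebpa, Cebpd, Spi1, Myd88 and Ticam1 also lie outside it and are named to say what their lists hold. Some genes that the rule names are not reported here.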

Additional observations from a re-analysis of the deposited data

How the results depend on the processing

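Of the 10 tested members, Ccl6 and Ccl12 passed in all 16 alternatives, Ccl9 and Ccl17 in 9 of 15, Ccl7 in 8 of 16, Ccl5 in 4 of 15, Ccl2 in 3 of 16, and Ccl3, Ccl4 and Ccl27a in 0 of 15. No member changed sign in any of these. The count of 4 members became 7 without robust variance estimation. With 1 library left out, the counts ran from 55 to 391 for all genes (258 with all libraries), 2 to 6 for the members, 0 to 1 for CC receptors, 0 to 5 for other chemokines, 0 to 4 for NF-kB factors, 0 to 5 for upstream receptors, 0 to 7 for STAT and IRF factors, 0 to 1 for microglia markers (without Control-IgG 1 the call was Itgam, higher, in place of Cx3cr1, lower) and 0 to 3 for astrocyte markers. Limma-voom on recovered reads called 490 genes, 4 upstream receptors and 2 microglia markers; without a filter, an alternative chosen after seeing the data, it called 527 genes, 1 NF-kB factor, 4 upstream receptors and 2 microglia markers. A mean of at least 10 FPKM left 2 other chemokines and 0 proteases called and no CC receptor to test. Microglia marker calls were 0 without a trend and 0 without a filter, and astrocyte marker calls 0 without a trend and 5 with quantile normalization. Except where fewer genes or libraries entered the fit, the cause was not tested. Low read numbers limit Ccl17 (12 reads in its shallowest library) and Ccl20.

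The replicate numbers were not taken as pairs: same-numbered libraries had correlations of deviations of 0.200, 0.009 and 0.202. With the number as a replicate block, 607 genes passed, with 6 members, 8 other chemokines, 5 NF-kB factors, 5 upstream receptors, 7 STAT and IRF factors, 4 microglia markers and 5 astrocyte markers. AQP4-IgG 1 and 3 correlated best with their own numbers, and AQP4-IgG 2 with Control-IgG 1 (0.067).

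The log2 fold change of 11 named or neighbouring genes changed sign in at least 1 alternative, with 0 of these 27 values past the threshold. With 1 library left out the values ran from -0.176 to 0.086 for Particl, -0.023 to 0.030 for Heatr6, -0.052 to 0.003 for Paip1, -0.016 to 0.064 for 4833420G17Rik, -0.127 to 0.005 for Il11ra1, -0.022 to 0.138 for Rpp25l, -0.011 to 0.040 for Evi5l, -0.034 to 0.026 for Timm44, -0.054 to 0.001 for Elavl1, -0.027 to 0.043 for Rspry1 and -0.087 to 0.032 for Adgrg1. Evi5l stood at -0.007 with median scaling and -0.004 with quantile normalization, Rspry1 at -0.012 and -0.010, and at -0.000 in both limma-voom fits.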
